A study of Rattus norvegicus with 8 samples.

Results

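The genes described are the 4 rat adenosine receptors, Adora1, Adora2a, Adora2b and Adora3, and adenosine kinase, Adk. They were found as all probe sets (groups of short oligonucleotide probes that read 1 transcript) whose gene symbol in the platform's annotation is one of these 5 names, and the rule used no measured value. It gave 7 probe sets for 5 genes, of 4741 distinct gene symbols on the array, and all 7 passed the filter on dim signals. Adora1, Adora2a, Adora2b and Adk had 1 probe set each and Adora3 had 3. Total RNA of whole rat brain was hybridised to 8 arrays, 1 array per sample, and every rat was intubated. For the 3 control samples, the rats had breathed isoflurane, a volatile anaesthetic, for 3 min and were then perfused with cold saline. A further 2 samples were taken after 1 hr of 2% isoflurane and 3 samples after 2 hr of 2% isoflurane. No group without isoflurane was analysed here. The labels state neither strain, sex and age nor how many animals a sample came from, so p-values speak only for the spread among these 8 samples, some of which may be technical.

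Adenosine is released or formed outside cells as ATP is used, and in the brain it damps neuronal activity and promotes sleep. Adora1 and Adora3 couple to inhibitory G proteins that lower cyclic AMP, whereas Adora2a and Adora2b couple to stimulatory G proteins that raise it. Adora1 is widespread on neurons and their terminals, Adora2a is concentrated in the striatal neurons that also make enkephalin and the dopamine receptor Drd2, Adora2b has a low affinity for adenosine, and Adora3 is sparse in brain. Adk phosphorylates adenosine to AMP, which is the main route by which adenosine is cleared inside brain cells, in the adult mostly in astrocytes.

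The promoter windows in RefSeq's GRCr8 table, from 250 bases before to 50 after the start of each gene, covered 4 of the 5 genes. The windows of Adk and Adora3 are shown because Adk had the steadiest signal of the 5 genes and Adora3 is the gene whose probe sets differed, and their windows also differ in base composition. Capitals mark GC boxes, searched as GGGCGG or CCGCCC so that both strands are read, with each start position counted once. Each window is written 5′ to 3′ on the strand of its gene.
Adk, chr15:3295696-3295995, minus strand: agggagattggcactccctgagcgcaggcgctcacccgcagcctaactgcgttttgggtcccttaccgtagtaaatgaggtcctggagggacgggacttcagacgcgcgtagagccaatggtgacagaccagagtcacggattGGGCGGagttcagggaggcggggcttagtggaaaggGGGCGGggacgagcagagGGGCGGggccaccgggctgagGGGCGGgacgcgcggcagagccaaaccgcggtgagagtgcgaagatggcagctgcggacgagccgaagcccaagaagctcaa
Adora3, chr2:196076792-196077091, plus strand: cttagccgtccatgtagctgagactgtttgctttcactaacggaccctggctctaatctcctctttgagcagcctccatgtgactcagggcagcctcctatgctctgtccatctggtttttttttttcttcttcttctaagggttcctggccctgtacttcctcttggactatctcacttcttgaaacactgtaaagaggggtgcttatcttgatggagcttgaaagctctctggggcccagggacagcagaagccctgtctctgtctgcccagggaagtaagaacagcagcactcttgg
The Adk window was 65% G or C with 26 CpG dinucleotides and 4 GC boxes, and the Adora3 window was 50.3% G or C with 2 CpG and 0 GC boxes. The Adora2b window was more like that of Adk, at 72%, 33 CpG and 4 GC boxes, and the Adora1 window had 59%, 5 CpG and 0 GC boxes. Over 33469 promoter windows of this length the medians were 51.7% and 7 CpG, and 33.1% held a GC box. The cyclic AMP response element TGACGTCA, which reads the same on both strands, was in none of the 4 windows and in 1.83% of all windows. These matches describe letters in a window and no result below rests on them.

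Signals are the authors' deposited intensities on a linear scale. They carry no unit of RNA amount, so levels are compared between arrays for 1 probe set and never between probe sets. An intensity of 9.1, the 20th percentile of all values, served as the floor. All 7 probe sets lay above it on all 8 arrays, the lowest reading being 15.1. Markers of brain cells were present, with 11 of 12 neuron, 7 of 8 astrocyte and 6 of 6 oligodendrocyte markers above the floor on all 8 arrays. In bulk tissue, fewer cells of a type and less RNA per cell cannot be told apart. The top intensity of an array was 23009 to 37712 on 3 arrays, which were control replicate 3, 1 hr replicate 1 and 2 hr replicate 3, and 3504 to 12445 on the remaining 5. A probe set for 5S ribosomal RNA, included as a control, read 12.9 to 23.7 on control replicates 1 and 2 and 2 hr replicate 1, and 70.4 to 141.7 on the remaining 5. Of all arrays, control replicate 3 had the highest ratio of the 3′ to the 5′ actin probe set, 2.89 against 1.04 to 1.68. Changes are log2 differences between group means from limma, fitted to all 7770 probe sets tested, with adjusted p from Benjamini-Hochberg over all of them.

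None of the 5 genes passed the test in any of the 3 comparisons, and each 95% interval of a change included 0. For 2 hr against control, 0 of the 7 probe sets passed at an adjusted p under 0.05, beside 0.00% of all probe sets tested, and 0 of 7 had an unadjusted p under 0.05, beside 1.79% of all. For 1 hr against control the counts were 0 of 7 beside 0.00%, and 0 of 7 beside 2.68% at the unadjusted level. In 2 hr against 1 hr they were 0 of 7 beside 0.00% and 0 of 7 beside 2.77%, and 0 of 7 had groups that did not overlap, beside 13.8% of all probe sets. On the brightest probe set of each gene, 5 of 5 genes had an estimate below 0 for 2 hr against control, with a median log2 change of -0.10, where 52.3% of all probe sets lay above 0 and their median was 0.02. All 5 estimates lay above 0, between 0.08 and 0.72, when the 3 arrays of highest top intensity were left out. The common direction was also lost without 2 hr replicate 3, where Adora2a (0.0025), Adora2b (0.19), Adora3 (0.02) and Adk (0.11) turned and Adora1 was -0.005. Without control replicate 3, Adora1 (0.28), Adora2a (0.48) and Adora3 (0.0625) turned. Without 2 hr replicate 1 the values were 0.08 for Adora2a and 0.11 for Adora2b. With a pseudocount of 16, Adora2b alone turned, to 0.0023. Without control replicate 1, Adk alone turned, to 0.06. The cause of these turns was not tested. For 1 hr against control 2 of the 5 genes lay above 0 and the median was -0.07, beside a median of 0.05 over all probe sets. Set against 1 hr, the 2 hr group had 3 of 5 above 0 and the median was below 0.01 in size, beside -0.03 over all.

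**Figure D1:**
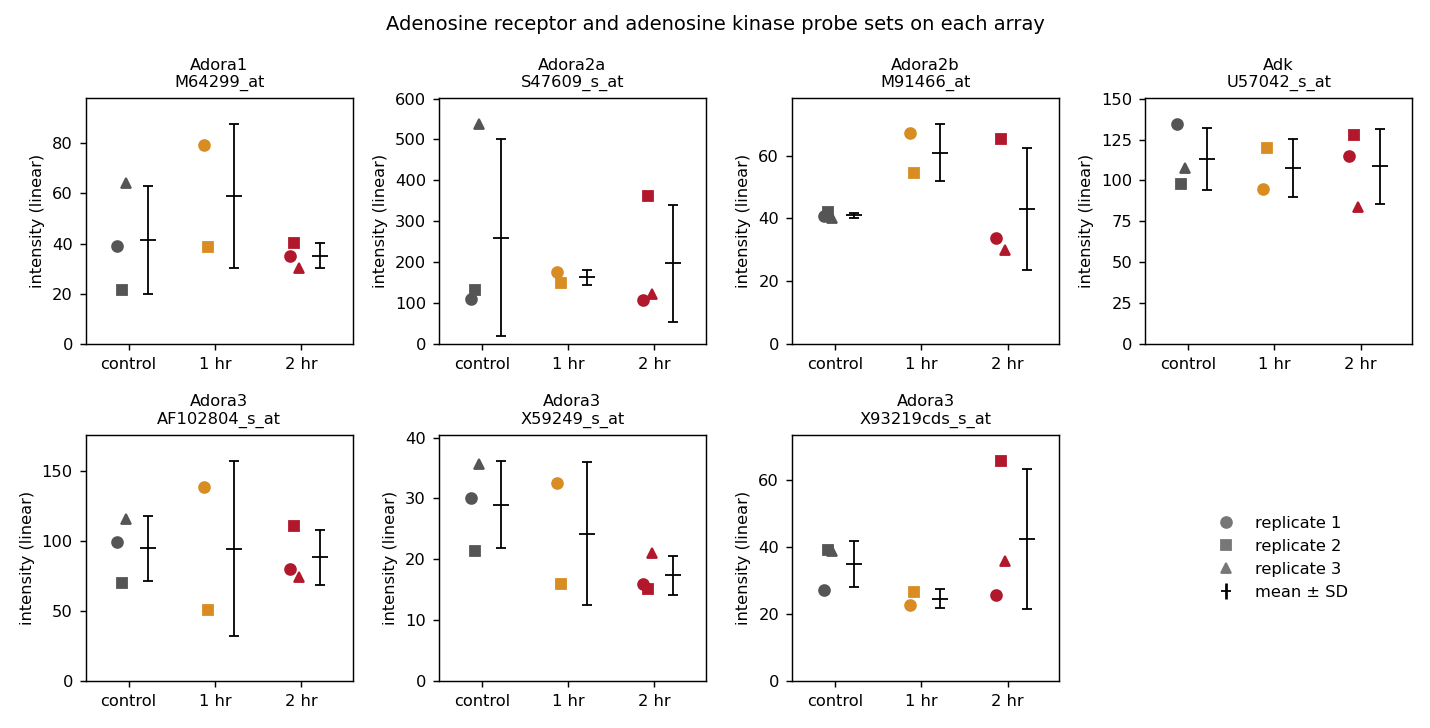
Intensity on a linear scale (y axis, own scale per panel, starting at 0) of the 7 probe sets in control, 1 hr and 2 hr samples (x axis); symbols are single arrays and bars the mean ± SD (n = 3, 2 and 3). Adora2a reads 362.8 on 2 hr replicate 2 and 537 on control replicate 3, and Adk stays between 83.5 and 134.3 on all arrays.

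Adora1, the main inhibitory adenosine receptor of neurons, read 39, 21.4 and 64.1 in the controls, 79 and 38.7 after 1 hr, and 34.9, 40.4 and 30.3 after 2 hr. The highest readings were 1 hr replicate 1 and control replicate 3, and the 2 hr values lay inside the range of the controls. The 1 hr mean was the highest, followed by the control and the 2 hr mean, and no neighbours in that order differed beyond their spread. The mean log2 intensity was 5.13 ± 0.21 (SD, n = 3) after 2 hr and 5.24 ± 0.79 (SD, n = 3) in the controls. The log2 change was -0.11 (SE 0.506, 95% interval -1.24 to 1.03, limma adjusted p = 1), which leaves room for a fall by 2.36-fold or a rise by 2.04-fold. After 1 hr the mean was 5.79 ± 0.73 (SD, n = 2), a log2 change of 0.55 over the controls (SE 0.566, interval -0.71 to 1.82, limma adjusted p = 1). That difference came down to 0.04 without 1 hr replicate 1 and was 1.07 without 1 hr replicate 2, 0.15 without control replicate 2 and 0.94 without control replicate 3. Blocking on the 5S class gave 0.17. The 2 hr estimate against control turned to 0.28 without control replicate 3. Against 1 hr, the 2 hr estimate was -0.66 (SE 0.566, interval -1.93 to 0.61, limma adjusted p = 1). It was -1.18 without 1 hr replicate 2, -0.15 without 1 hr replicate 1 and -0.0435 without the 3 arrays of highest top intensity.

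Adora2b, the low-affinity stimulatory receptor, read 40.9, 41.9 and 40.2 in the controls, 67.3 and 54.6 after 1 hr, and 33.7, 65.2 and 30.1 after 2 hr. The controls lay within 1.04-fold of each other, both 1 hr arrays lay above all of them, and the 2 hr arrays lay on either side. On the log2 scale the 1 hr mean was the highest, followed by the control and the 2 hr mean. The last pair did not differ beyond their spread, and on the linear scale the 2 hr mean was 43 and the control mean 41. After 1 hr the mean log2 intensity was 5.92 ± 0.21 (SD, n = 2), against 5.36 ± 0.03 (SD, n = 3) in the controls, 1.48-fold higher in the estimate (log2 change 0.56, SE 0.466, interval -0.48 to 1.61). This did not pass limma's test (unadjusted p = 0.255, adjusted p = 1), whose spread is estimated from all 3 groups. The estimate stayed above 0 in all 23 alternative settings, from 0.40 to 0.72. Filters, variance models and left-out 2 hr arrays cannot move it and left it at 0.56, so their agreement was fixed in advance. Leaving out control or 1 hr arrays can change its size but not its sign, because both 1 hr arrays lay above all controls. The kept direction in those settings restates that the groups did not overlap. Among all probe sets, 7.54% had every 1 hr array above every control and 5.11% had every 1 hr array below, 12.7% in either direction. Within the arrays of highest top intensity the 1 hr difference was 0.74 (1 array against 1), and within the others 0.40 (1 array against 2). After 2 hr the mean was 5.34 ± 0.60 (SD, n = 3) and the change from the controls -0.02 (SE 0.417, interval -0.95 to 0.91, limma adjusted p = 1). The 2 hr mean was 0.58 below the 1 hr mean (log2 change -0.58, SE 0.466, limma adjusted p = 1), and 2 hr replicate 2 lay within the range of the 1 hr arrays. That estimate was -0.93 without 2 hr replicate 2, -0.37 without 2 hr replicate 3 and -0.22 without the 3 arrays of highest top intensity.

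Adora3, the sparse inhibitory receptor, was read by 3 probe sets, which differed from each other. In the annotation these probe sets carry the symbol Adora3 under a pair of gene numbers. In the RefSeq table of GRCr8 Adora3 overlaps Tmigd3, so signals of the 2 genes may be mixed. Adora1 also overlaps Mybph there, and Adk overlaps 4 entries, among them Ap3m1. The brightest Adora3 probe set, AF102804_s_at, read 99.2, 69.9 and 115.8 in the controls, 138.9 and 50.4 after 1 hr, and 80.2, 110.8 and 74 after 2 hr. The 1 hr arrays held both its highest and its lowest value and so enclosed the other groups. Its log2 change was -0.10 for 2 hr against control (SE 0.424, interval -1.05 to 0.86), -0.15 for 1 hr against control (SE 0.475) and 0.06 for 2 hr against 1 hr (SE 0.475), each with a limma adjusted p of 1. At 1 hr the estimate was 0.58 without 1 hr replicate 2 and -0.88 without 1 hr replicate 1.

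The probe set X59249_s_at read 30, 21.4 and 35.6 in the controls, 32.5 and 15.9 after 1 hr, and 16, 15.1 and 21 after 2 hr. Every 2 hr array lay below every control, by a margin of 21 against 21.4 at the closest. The log2 change was -0.72 for 2 hr against control (SE 0.423, interval -1.67 to 0.22), the largest in size among the 7 probe sets in that comparison, and it did not pass limma's test (unadjusted p = 0.119, adjusted p = 1). Of all probe sets, 8.42% had a larger change in size, and 2.55% had every 2 hr array below every control (5.44% in either direction). The estimate stayed below 0 in 22 alternative settings and ran from -0.93, without control replicate 2, to -0.15, when the floor was set at the 40th percentile. Filters, variance models and left-out 1 hr arrays cannot move it and left it at -0.72. Leaving out control or 2 hr arrays can change its size but not its sign, because every 2 hr array lay below every control. The kept direction in those settings restates that the groups did not overlap. The remaining probe set, X93219cds_s_at, read 27, 39.2 and 38.7 in the controls, 22.5 and 26.6 after 1 hr, and 25.5, 65.6 and 35.7 after 2 hr. Its 1 hr arrays lay below all controls, closest at 26.6 against 27 (beside 5.11% of all probe sets, 12.7% in either direction). Its 2 hr arrays overlapped the controls. The log2 changes were 0.18 for 2 hr against control (SE 0.461), -0.49 for 1 hr against control (SE 0.515) and 0.68 for 2 hr against 1 hr (SE 0.515), each with a limma adjusted p of 1. Over the 8 arrays the Pearson correlation between AF102804_s_at and X59249_s_at was 0.61, between AF102804_s_at and X93219cds_s_at 0.12, and between X59249_s_at and X93219cds_s_at -0.30. These correlations describe the same 8 arrays. The 2 hr change of -0.72 on X59249_s_at thus stood beside -0.10 and 0.18 on the other 2 probe sets of its gene.

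Adk, the enzyme that clears adenosine, read 134.3, 97.6 and 107.5 in the controls, 95.1 and 119.9 after 1 hr, and 114.9, 127.9 and 83.5 after 2 hr. The 3 groups lay over one another, and the highest reading was 1.61-fold the lowest over all arrays. The mean log2 intensity was 6.81 ± 0.24 (SD, n = 3) in the controls, 6.74 ± 0.24 (SD, n = 2) after 1 hr and 6.74 ± 0.32 (SD, n = 3) after 2 hr, and no neighbours in this order differed beyond their spread. Its SD over the 8 arrays was 0.233 on the log2 scale, and only 8.11% of the probe sets tested had a smaller one, where the median SD was 0.499. The log2 change was -0.07 for 2 hr against control (SE 0.298, interval -0.73 to 0.60) and -0.07 for 1 hr against control (SE 0.333, interval -0.82 to 0.68), and it was below 0.01 for 2 hr against 1 hr, with a limma adjusted p of 1 in each. These intervals are the narrowest of the 5 genes and leave room for a fall of 1.66-fold or a rise of 1.52-fold after 2 hr. Over the same arrays the mean log2 intensity of the 8 astrocyte markers on the array ran from 8.32 to 8.44 after 2 hr and from 7.66 to 8.50 in the controls, and their part in the Adk readings was not tested.

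**Figure D2:**
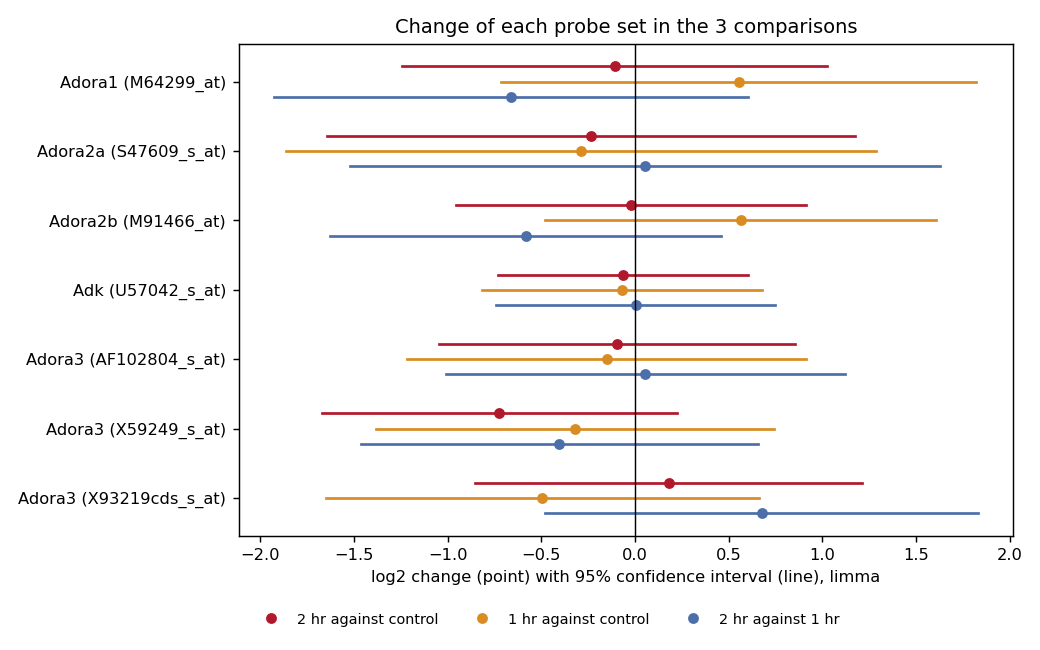
Log2 change (points) with the 95% confidence interval from limma (lines) for each of the 7 probe sets (rows) in the comparisons 2 hr against control, 1 hr against control and 2 hr against 1 hr. Every interval spans 0, the intervals of Adk are the narrowest, and the 3 Adora3 probe sets disagree in sign for 2 hr against control.

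Adora2a, the stimulatory receptor of striatal neurons, varied most between arrays among the 5 genes. It read 111.1, 131.3 and 537 in the controls, 175.4 and 150.7 after 1 hr, and 109.1, 362.8 and 121.7 after 2 hr. Control replicate 3 and 2 hr replicate 2 stood above the other 6 arrays, which lay between 109.1 and 175.4, and the 3 groups overlapped. The range within the 2 hr group was 3.33-fold and within the controls 4.83-fold. Its SD over the 8 arrays, 0.854 on the log2 scale, was larger than that of 87.5% of the probe sets tested. The mean log2 intensity was 7.63 ± 1.25 (SD, n = 3) in the controls, 7.35 ± 0.15 (SD, n = 2) after 1 hr and 7.40 ± 0.96 (SD, n = 3) after 2 hr, and no neighbours in this order differed beyond their spread. The log2 change was -0.23 for 2 hr against control (SE 0.629, interval -1.64 to 1.17), -0.29 for 1 hr against control (SE 0.703, interval -1.86 to 1.29) and 0.05 for 2 hr against 1 hr (SE 0.703, interval -1.52 to 1.63), each with a limma adjusted p of 1. The 2 hr estimate against control turned to 0.48 without control replicate 3, to 0.0814 without 2 hr replicate 1 and to 0.0025 without 2 hr replicate 3, and it was -0.79 without 2 hr replicate 2. The 1 hr estimate against control turned to 0.43 without control replicate 3. Within the arrays of highest top intensity the 2 hr change was -2.14 (1 array against 1), and within the others 0.72 (2 against 2). Within the arrays of low 5S reading it was -0.15 (1 array against 2 controls), and within the others -1.35 (2 against 1 control). With the 5S reading as a block the estimates were -0.75 for 2 hr against control and -1.32 for 1 hr against control, where control replicate 3 is the only control with a 5S reading in the range of the 1 hr arrays. The limma adjusted p was 0.957 for the 2 hr estimate and 0.809 for the 1 hr estimate (unadjusted 0.0401).

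Several genes of striatal neurons showed a similar pattern over the arrays. Penk encodes the enkephalin precursor made by the same striatal neurons. It was the gene most like Adora2a, with a Pearson r of 0.957 over the 8 arrays. This ranking covers 4678 probe sets of other genes with 1 gene symbol and gene number that lay above the floor on every array. Of all probe sets tested, 0.103% had a higher r. Penk read 263, 380 and 2011 in the controls, 405.6 and 412.2 after 1 hr, and 172.2, 759.1 and 226.8 after 2 hr, so its highest arrays were also control replicate 3 and 2 hr replicate 2. Drd1, the dopamine receptor of the other main class of striatal neurons, had an r of 0.942, with 121 on 2 hr replicate 2, 193.3 on control replicate 3 and 20.4 to 51.6 on the other arrays. Rgs9, a striatal regulator of G protein signalling, had an r of 0.851 and read 245.2 on 2 hr replicate 2 and 284.6 on control replicate 3, against 5.7 to 100.9 elsewhere. Gnal, the stimulatory G protein of the striatum to which Adora2a couples, had an r of 0.90 and read 76.9 on 2 hr replicate 2 and 99.3 on control replicate 3, against 2.8 to 22.6 elsewhere. Readings under the floor of 9.1 were set to it before any correlation.

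Over the 12 striatal genes tested, the median r with Adora2a was 0.78, beside a median of 0.06 over all probe sets tested. For 7 of the 12, control replicate 3 and 2 hr replicate 2 were the highest arrays, beside 5.83% of all probe sets. The exceptions were Drd2, Tac1, Pde1b, Strn and Pdyn. Drd2, the dopamine receptor found with Adora2a in striatal neurons, read 124.1 on 2 hr replicate 2 but 14.8 on control replicate 3 and 8.7 to 27.5 on the rest, with an r of 0.524. Tac1, the substance P precursor, read 1584.3 on control replicate 3, and 1 hr replicate 1 at 520.7 was close to 2 hr replicate 2 at 515.8. Pdyn, the dynorphin precursor, varied by 1.39-fold over all arrays and had an r of 0.177. The summed intensity of the 13 striatal genes on the array ran from 2459 to 5356 in the 2 hr group and from 2595 to 7044 in the controls, and their part in the Adora2a readings was not tested. Control replicate 3, the array with the actin ratio of 2.89, had the highest sum of the striatal genes but was the lowest in several cell type marker lists. It was the highest for blood markers, at a mean log2 intensity of 5.79 (4.28 to 5.43 on the others). For oligodendrocyte and pituitary markers it was not the lowest. Its mean log2 intensity was 6.43 for neuron markers, against 7.48 to 8.21 on the other 7 arrays, 7.66 for astrocyte markers (8.24 to 8.50 on the others), 6.17 for meninges markers (7.09 to 7.78) and 5.09 for endothelial and mural markers (5.57 to 6.09). Control replicate 3 was also the lowest for choroid plexus markers, at 6.36 (6.60 to 8.32). The same held for microglia and macrophage markers, at 4.96 (5.10 to 6.05). The highest array for microglia and macrophage markers, at 6.05, and for meninges markers, at 7.78, was 2 hr replicate 2. For pituitary markers it read 5.82, beside 5.85 on 1 hr replicate 2 and 4.44 to 4.97 on the others. In the remaining marker lists 2 hr replicate 2 was neither the highest nor the lowest. The part of these differences in the Adora2a readings was not tested. None of the 12 passed limma's test in any comparison, and for 2 hr against control 5 lay above 0 and 7 below, with a median log2 change of -0.03, beside 0.02 over all probe sets. Without the 2 arrays that stood apart, over the other 6 arrays, the median r of the 12 genes with Adora2a was 0.34, beside 0.10 over all probe sets, with 0.83 for Penk, 0.70 for Rgs9, 0.47 for Drd1 and 0.12 for Gnal. There r was below 0 for Pdyn (-0.65), Arpp21 (-0.33) and Pde1b (-0.22), although Arpp21 was among the 7 genes highest on those 2 arrays.

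**Figure D3:**
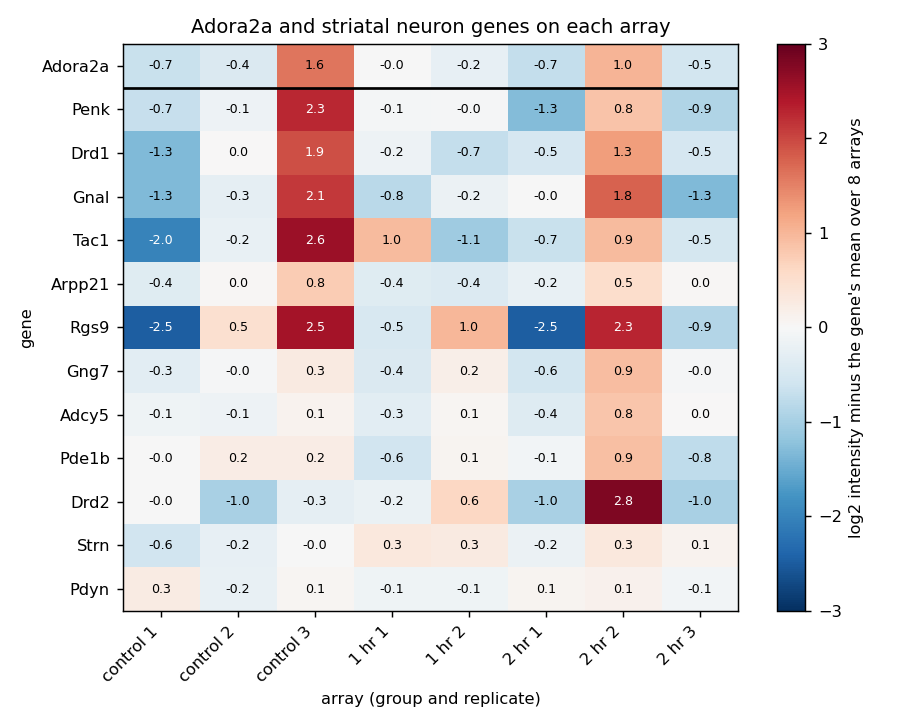
Log2 intensity minus the gene's mean over the 8 arrays (colour and number) for Adora2a (top row) and 12 striatal neuron genes (rows, ordered by their correlation with Adora2a) on each array (columns). Adora2a, Penk, Drd1, Rgs9 and Gnal are highest on control replicate 3 and 2 hr replicate 2, whereas Drd2 is high on 2 hr replicate 2 and not on control replicate 3.

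By the same measure, the genes most like Adora2a after Penk were Bad (r = 0.952) and Rhoc (r = 0.945). Adora1 was most like Fbp2 (r = 0.971), Amh (r = 0.956) and Tulp1 (r = 0.942), and Adora2b most like Chrm2 (r = 0.952), Spry1 (r = 0.94) and Plcd4 (r = 0.937). For Adora3 on its brightest probe set the genes were Msx2 (r = 0.97), Stc1 (r = 0.964) and Cftr (r = 0.944). For Adk they were Fkbp4 (r = 0.923), Csnk1g2 (r = 0.919) and Evl (r = 0.919). These are the highest of 4678 values (4679 for Adora3) over only 8 arrays and describe these arrays alone. Among the 5 genes themselves, r over the 8 arrays ran from 0.025 for Adk with Adora3 to 0.70 for Adora1 with Adora3 on its brightest probe set, and Adk had an r of at most 0.31 with any of the receptors on those probe sets.

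None of the genes that form, carry and remove adenosine passed the test. Of 37 symbols listed 22 genes were on the array and 20 were tested, and 0 of 20 passed in either direction in any comparison. After 2 hr 10 lay above 0 and 10 below, with a median log2 change of 0.06, and for 1 hr against control the split was also 10 and 10, with a median below 0.01. Slc29a1, the equilibrative transporter that moves adenosine across the cell membrane, read 71.6, 121.7 and 75 after 2 hr, against 58.8, 72.7 and 56.3 in the controls (log2 change 0.48, SE 0.347, limma adjusted p = 1), and 2 hr replicate 1 lay below control replicate 2. Uox, urate oxidase at the far end of purine breakdown, read 42.5, 66.5 and 37.7 after 2 hr, against 71.9, 57.9 and 99.2 in the controls, and the groups overlapped (log2 change -0.65, SE 0.448, limma adjusted p = 1). These 2 genes had the smallest unadjusted p of their list in that comparison.

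The P2 receptors, which bind ATP and related nucleotides, were dim, and 5 of the 13 on the array lay above the floor on all 8 arrays. Of 12 tested, 0 passed in any comparison. After 2 hr, relative to control, 7 lay above 0 and 5 below, with a median log2 change of 0.02. For 1 hr against control 11 lay above 0 and 1 below, with a median of 0.38 beside 0.05 over all probe sets, and 1 of the 12 had 1 hr arrays that did not overlap the controls, beside 12.7% of all probe sets. In that comparison marker list medians were 0.36 for neuron markers (9 of 12 above 0) and 0.96 for choroid plexus markers (4 of 4). They were 0.34 each for pituitary (7 of 7), microglia and macrophage (5 of 7) and endothelial and mural markers (4 of 7). Lower medians were those of astrocyte (0.28), oligodendrocyte (0.21), meninges (0.09) and blood markers (-0.01). The part of these markers in the P2 values was not tested. Over 22 alternative settings the P2 median ran from 0.23, without the 3 arrays of highest top intensity, to 0.74, without 1 hr replicate 2. The mean log2 intensity of the 13 genes was 4.95 and 5.16 on the 1 hr arrays, against 4.57 to 4.94 on the control arrays. P2rx3, an ATP-gated channel of sensory neurons, read 26, 8.6 and 6.9 after 2 hr, against 34, 27.6 and 42.4 in the controls. The 2 hr arrays lay below all controls and 2 of them below the floor, and the log2 change was -1.40 (SE 0.542, limma unadjusted p = 0.0279, adjusted p = 1). P2ry14, a receptor for nucleotide sugars, read 17.7, 19.5 and 5.2 after 2 hr, against 22.7, 24.9 and 27.8 in the controls, also without overlap (log2 change -0.77, SE 0.533, limma adjusted p = 1). These 2 of 12 without overlap stand beside 2.55% of all probe sets with every 2 hr array below every control (5.44% in either direction). Of all probe sets, 1.79% had a limma unadjusted p under 0.05.

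Of the G proteins, adenylyl cyclases and other partners that carry adenosine receptor signals, 29 were tested and 0 passed in any comparison. Relative to control, 15 lay above 0 and 14 below, after 2 hr with a median log2 change of 0.01, and for 1 hr against control 15 and 14, with a median of 0.03. Gnb1, a G protein beta subunit, read 679.3, 791.6 and 837.8 after 2 hr, against 983.4, 1246.9 and 930.6 in the controls. Its groups did not overlap, the only such case among the 29 for 2 hr against control, beside 5.44% of all probe sets (log2 change -0.45, SE 0.27, limma unadjusted p = 0.129, adjusted p = 1). Adcy6, an adenylyl cyclase that inhibitory G proteins block, read 34.6, 85 and 13 after 2 hr, against 28.6, 26.1 and 12.7 in the controls, and the groups overlapped (log2 change 0.67, SE 0.684, limma adjusted p = 1).

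**Figure D4:**
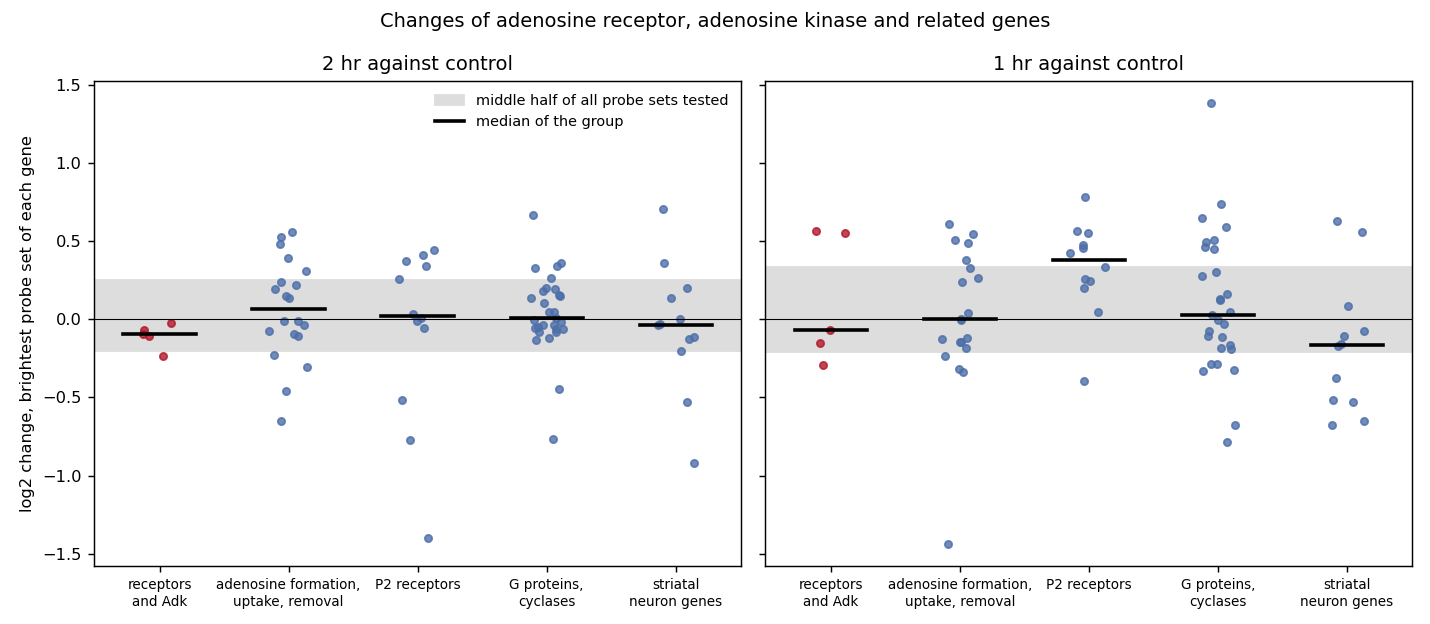
Log2 change (y axis) of the 5 adenosine genes and of the genes of 4 lists (points, brightest probe set of each gene) for 2 hr against control (left) and 1 hr against control (right), with the median of each (black line) and the middle part of all probe sets tested, between the quartiles (grey band). Medians lie inside the band except for the P2 receptors at 1 hr, at 0.38.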

How the data were processed

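Each of the 8799 probe sets has 1 linear intensity per array, as deposited by the authors. The labels and files do not say how or with which software they were scaled. The 2% trimmed means of the columns, 150.17 to 150.32, differed so little that no further scaling was applied. The 59 control probe sets were left out, values were floored at the 20th percentile (9.1) and log2 was taken. The 7770 of 8740 probe sets above the floor on at least 2 arrays were tested. A gene with several probe sets is represented by its brightest unless said otherwise. Of the 8740, 7017 had 1 gene symbol, 297 several and 1426 none. Symbols were updated by gene number to RefSeq's GRCr8 table. The Adora3 probe sets carry that symbol under 2 gene numbers and were counted as having 1 symbol.

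Groups were compared with limma 3.58.1 in R 4.3.3 (lmFit, contrasts.fit, eBayes with trend) on all 8 arrays with 1 mean per group, two-sided, with Benjamini-Hochberg adjustment over all probe sets tested and a threshold of 0.05. The steps were tested on simulated data. Genes named from a list are those that passed, or otherwise the 2 with the smallest unadjusted p for 2 hr against control. Genes most alike are the 3 with the highest Pearson r among probe sets with 1 gene symbol and gene number, above the floor on all arrays. Striatal genes beside them were named after their values were seen. The members, the lists and the tests were chosen with earlier results of these data known. The alternatives comprised other normalizations, floors, filters, variance models, blocks and left-out arrays. The small number of arrays limits precision. Replicate numbers were not used as a block, since no label ties them to a litter, day or batch.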

Additional observations from a re-analysis of the deposited data

How the results depend on the processing

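Across 23 alternative settings and 15 results (5 genes in 3 comparisons), 0 of 345 values passed limma's test, 306 kept their direction and 39 turned it. Filters, variance models and left-out arrays of the group not compared leave these estimates as they are. So does the mean over all probe sets for genes with 1 probe set. The kept direction in all these settings was fixed in advance, so the count of 306 overstates how far it was put to a test. All values below are log2 changes. Adora1 and Adora2b for 1 hr against control (above 0) and for 2 hr against 1 hr (below 0) kept their direction throughout. Without filter, 4 probe sets, none of them of these genes, passed for 1 hr against control and 4 for 2 hr against 1 hr, where 0 passed with it.

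Without the 3 arrays of highest top intensity, the values for 2 hr against control turned to 0.38 for Adora1, 0.72 for Adora2a, 0.1793 for Adora2b, 0.1789 for Adora3 and 0.0825 for Adk, and those for 1 hr against control to 0.32 for Adora2a and 0.0666 for Adk. For 2 hr against 1 hr, quantile normalization gave -0.0031 for Adora3 and -0.0107 for Adk, and median centring gave -0.0081 for Adora2a, -0.0073 for Adora3 and -0.0592 for Adk. In that comparison Adk was also -0.0496 with the highest top values as a block and -0.0369 with the 5S reading as a block, and with the 5S block it was 0.011 for 1 hr against control. A pseudocount of 16 gave 0.0023 for Adora2b for 2 hr against control. The cause of each turn was not tested.

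Leaving out 1 array at a time gave, for 2 hr against control, -0.52 to 0.28 for Adora1, -0.79 to 0.48 for Adora2a, -0.36 to 0.19 for Adora2b, -0.30 to 0.0625 for Adora3 and -0.19 to 0.11 for Adk. For 1 hr against control the ranges were -0.71 to 0.43 for Adora2a, -0.88 to 0.58 for Adora3 and -0.24 to 0.10 for Adk. For 2 hr against 1 hr they were -0.50 to 0.37 for Adora2a, -0.68 to 0.79 for Adora3 and -0.16 to 0.18 for Adk. Where this left 1 array at 1 hr, that array was assumed to vary like the other groups.

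Replicate numbers are shared across groups but nothing ties them to a pairing. Same-numbered arrays correlated between -0.331 and 0.286 in their deviations from the group means, and 2 of 8 arrays correlated best with their own number. With the replicate number as a block 0 probe sets passed in each comparison, as without it, and Adora2a for 2 hr against 1 hr turned to -0.19. Dim signals rest near the floor, and 3 against 3 arrays limit what can be detected.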
